A study of Homo sapiens with 4 samples.

Results

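The loci described are those of 9 transcription factor genes of blood stem and progenitor cells: MEIS1, HHEX, MYB, RUNX1, ERG, FLI1, IKZF1, MECOM and LYL1. They were taken by name, and each locus was the annotated gene span on hg38 extended by 100 kb on either side. Of 20033 protein-coding genes with a position, these are 9, and their windows held 149 of the 65118 H3K27ac peaks of daunorubicin-treated cells and 87 of the 38626 peaks of untreated cells. H3K27ac is acetylation of lysine 27 of histone H3, a mark of active promoters and enhancers, read here by ChIP-seq. All libraries came from K562, an established human cell line from chronic myeloid leukaemia in blast crisis that carries the BCR-ABL1 fusion. The treated cells had been given daunorubicin, an anthracycline that poisons topoisomerase II, at 1 uM for 18 h, and the untreated cells had been kept for the same time without it. Each condition had 1 H3K27ac library and 1 input library, so no difference below has a replicate check and no test between conditions was possible.

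Blood stem and progenitor cells are kept in their state by a small network of transcription factors that bind each other's enhancers, in which RUNX1, ERG, FLI1 and LYL1 act together with TAL1, LMO2 and GATA2. MEIS1 and MECOM are known from self-renewing stem cells and are often overexpressed in acute myeloid leukaemia, and MYB is needed for definitive blood formation and for progenitor growth. Several of these genes are read from more than a single promoter, and much of their control lies in introns and far upstream of the gene, so a wide window was needed to see their marked regions.

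Depth could not be read from the files, which give peaks and a score per peak but no read counts. The daunorubicin list had 1.69 times as many peaks as the untreated list and 1.59 times the covered length, so more peaks with daunorubicin at a locus is what most loci had. Neither input list, of 87 peaks with daunorubicin and 92 without it, had a peak at any of the 9 loci. Of genes taken as K562 markers, HBG1, GATA1, KLF1 and TFRC were marked at an end (a peak no farther than 1 kb) in both lists, HBG2 only with daunorubicin and HBE1 in neither. Of markers of other blood cells, CD3E and CD79A had a marked end in both lists, and PAX5, CD14 and MPO in neither.

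The annotated starts of the members show how different these promoters are, and the windows of some of them are printed below. RefSeq (GRCh38.p14) gave 15 starts for 8 of the 9 genes, and FLI1 had no entry. Not printed are the internal MECOM start at 169146539, the IKZF1 starts and all ERG starts but the most upstream. Shown are 280 bases, 250 before the start and 30 from it on, read along the gene. Capitals mark words bound by factors of this network, searched on both strands: AGATAA and TGATAA for GATA factors, CCGGAA and AGGAAG for ETS factors, TGTGGT for RUNX factors, CAGCTG and CAGATG for E-box factors, AACGG and AACTG for MYB, and TGACTCA for AP-1. No matches of different factors overlapped in these windows.
MYB, chr6:135181058-135181337, plus strand: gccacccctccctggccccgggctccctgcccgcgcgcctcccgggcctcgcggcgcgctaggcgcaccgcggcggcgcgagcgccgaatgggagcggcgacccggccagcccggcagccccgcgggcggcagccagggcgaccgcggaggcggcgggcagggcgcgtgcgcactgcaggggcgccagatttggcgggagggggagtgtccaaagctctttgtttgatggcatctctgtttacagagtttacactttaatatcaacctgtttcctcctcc
RUNX1 proximal start, chr21:34888670-34888949, minus strand: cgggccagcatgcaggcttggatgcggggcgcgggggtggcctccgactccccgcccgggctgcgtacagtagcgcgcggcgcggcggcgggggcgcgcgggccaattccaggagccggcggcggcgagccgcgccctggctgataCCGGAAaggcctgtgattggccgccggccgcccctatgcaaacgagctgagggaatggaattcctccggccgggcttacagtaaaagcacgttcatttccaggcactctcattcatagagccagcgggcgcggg
LYL1, chr19:13102829-13103108, minus strand: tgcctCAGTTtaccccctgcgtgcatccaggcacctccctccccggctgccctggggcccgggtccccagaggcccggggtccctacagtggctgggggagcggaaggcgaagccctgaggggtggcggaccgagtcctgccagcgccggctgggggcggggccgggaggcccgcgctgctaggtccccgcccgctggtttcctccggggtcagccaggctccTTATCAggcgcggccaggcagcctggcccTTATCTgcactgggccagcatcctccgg
HHEX, chr10:92689705-92689984, plus strand: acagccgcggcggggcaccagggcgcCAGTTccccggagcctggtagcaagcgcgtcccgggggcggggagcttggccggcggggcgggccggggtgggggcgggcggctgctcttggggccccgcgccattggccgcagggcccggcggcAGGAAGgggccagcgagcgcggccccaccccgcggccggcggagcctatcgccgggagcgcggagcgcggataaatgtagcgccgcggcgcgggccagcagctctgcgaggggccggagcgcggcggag
MEIS1, chr2:66434875-66435154, plus strand: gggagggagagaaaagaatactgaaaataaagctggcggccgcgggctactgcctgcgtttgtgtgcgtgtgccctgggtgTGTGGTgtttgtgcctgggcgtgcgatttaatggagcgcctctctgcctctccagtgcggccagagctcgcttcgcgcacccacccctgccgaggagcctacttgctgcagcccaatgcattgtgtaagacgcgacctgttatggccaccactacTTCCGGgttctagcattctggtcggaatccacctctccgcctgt
MECOM distal start, chr3:169663683-169663962, minus strand: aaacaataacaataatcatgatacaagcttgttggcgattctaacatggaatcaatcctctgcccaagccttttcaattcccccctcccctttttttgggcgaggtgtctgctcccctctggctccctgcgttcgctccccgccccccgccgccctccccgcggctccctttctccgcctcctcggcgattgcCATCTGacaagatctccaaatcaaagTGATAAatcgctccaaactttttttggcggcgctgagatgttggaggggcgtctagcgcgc
MECOM internal start, chr3:169147442-169147721, minus strand: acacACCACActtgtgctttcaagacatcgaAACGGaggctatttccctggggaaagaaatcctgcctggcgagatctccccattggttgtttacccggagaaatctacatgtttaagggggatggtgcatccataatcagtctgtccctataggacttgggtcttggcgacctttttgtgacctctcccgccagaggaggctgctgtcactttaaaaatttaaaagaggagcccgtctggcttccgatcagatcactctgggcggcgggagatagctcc
ERG most upstream start, chr21:38660638-38660917, minus strand: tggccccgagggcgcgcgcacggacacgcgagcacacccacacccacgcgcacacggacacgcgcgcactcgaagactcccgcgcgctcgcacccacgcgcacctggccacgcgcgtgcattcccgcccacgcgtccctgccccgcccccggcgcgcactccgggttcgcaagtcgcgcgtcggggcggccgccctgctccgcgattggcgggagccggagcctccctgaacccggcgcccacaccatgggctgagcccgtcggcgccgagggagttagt

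A CpG-rich window was not always a marked one. The HHEX window had 81.1% G or C and 43 CpG pairs, MYB had 71.8% and 34, RUNX1 70.4% and 35, and all 3 starts were marked in both lists. The most upstream ERG window had 76.4% and 48 CpG pairs, more CpG pairs than 99.1% of 34941 promoter windows of the same length. No peak lay within 1 kb of that start in either list. Of the 1445 RefSeq starts with at least 40 CpG pairs, 14.3% likewise had no peak in either list, against 38.1% of all starts of protein-coding genes. The members' other starts without a peak had few CpG pairs: 0 at the IKZF1 start at 50319048 and 3, 3 and 4 at the remaining ERG starts. The IKZF1 start at 50308700, with 3 CpG pairs, was marked in both lists. LYL1 had a GATA word at 27 to 22 bases before its start and another 3 to 8 bases into the transcript, and the MECOM distal window had 1 at 31 to 26 bases before the start. Either GATA word was found in 15.7% of all such windows. Of the windows not printed, those of the MECOM start at 169146539, the IKZF1 start at 50319048 and the ERG starts at 38498504 and 38498477 also held GATA words. Among the printed windows, an ETS word was found in those of RUNX1, HHEX and MEIS1, and in 43.3% of all windows. A RUNX word was in the printed windows of MEIS1 and the internal MECOM start, and in 12.3% of all. Of the windows not printed, every IKZF1 window and those of ERG at 38498504 and 38498477 held an ETS word. The IKZF1 window at 50308700 also held a RUNX word. The MYB window and the most upstream ERG window held none of the 10 words, whereas the other ERG windows held 2 or 3. An AP-1 word was in none of the windows shown and in 4.74% of all.

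Peaks covered 121304 bp of the 9 loci with daunorubicin and 78890 bp in untreated cells. The ratio was 1.54, and the ratio of peak numbers was 1.71. Both ratios were close to those of the whole lists. Marked length, meaning the bases that peaks cover, was longer with daunorubicin at 8 of the 9 loci and 0 bp in both lists at FLI1, against a background of 90.8% longer among 18480 protein-coding genes with a peak in the same kind of window. The ratio was at least 1.5 at 5 of the 8 marked loci, against 40.1% of genes marked in both lists. All 8 also had more peaks, against 85.7%. The median difference of the 8 was 3799.5 bp and that of all marked genes 2276.5 bp, and windows of long genes such as MECOM, ERG and RUNX1 are themselves long.

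**Figure D1:**
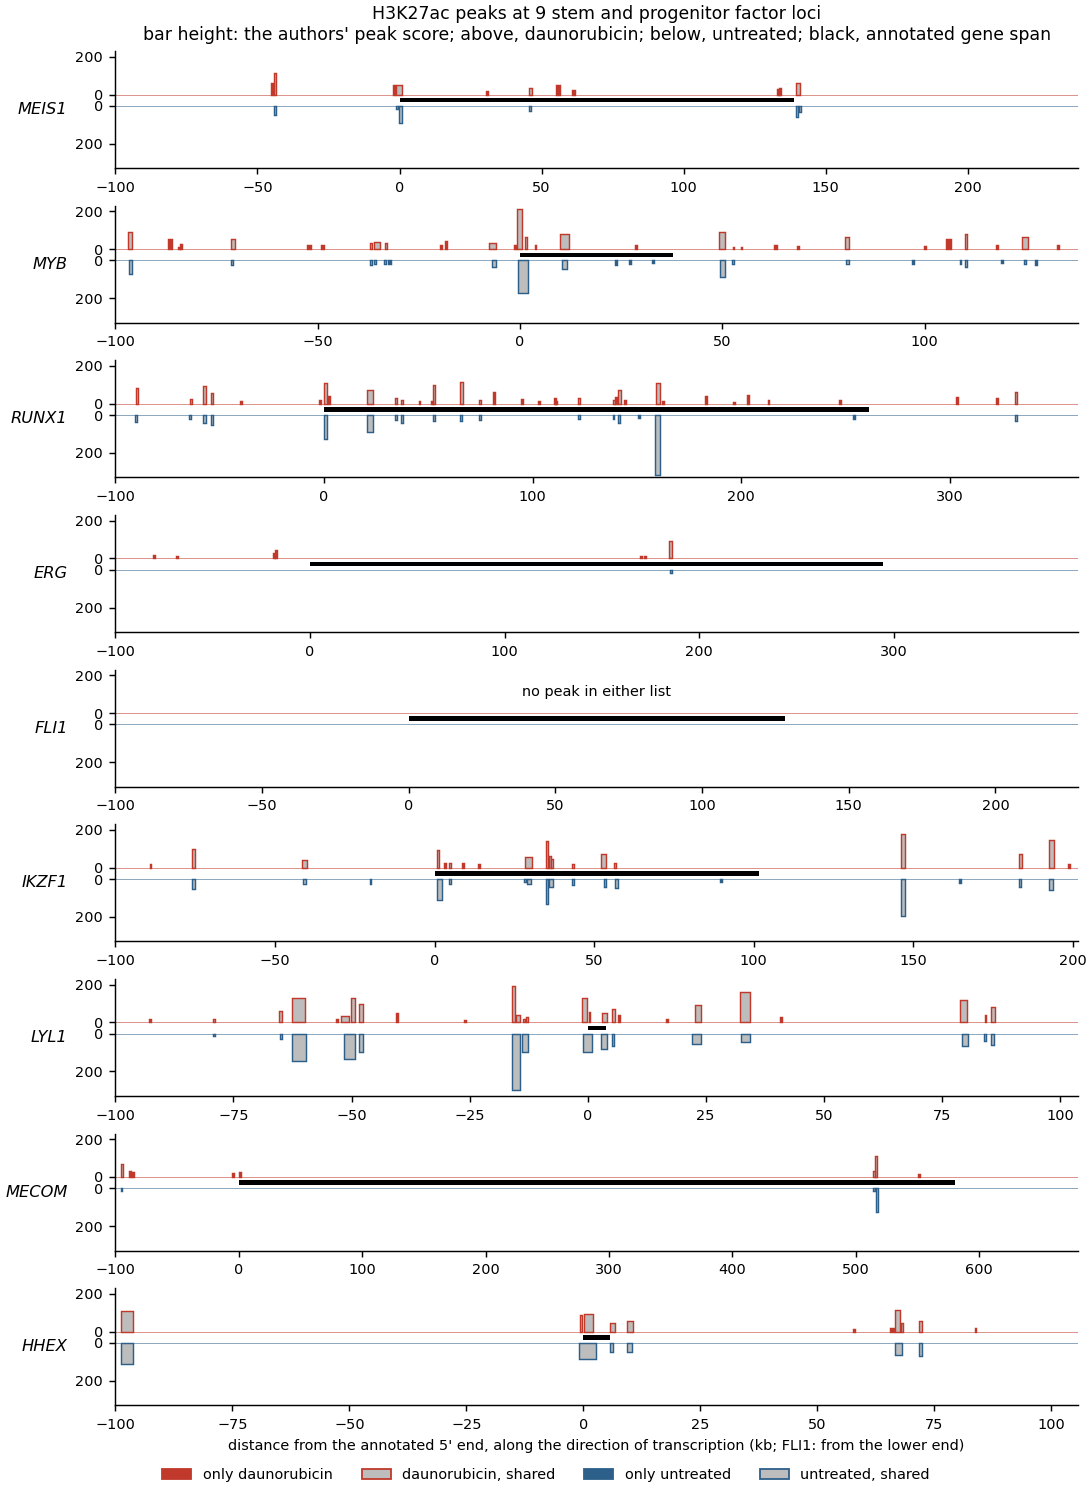
H3K27ac peaks at the 9 loci by distance in kb from the annotated 5′ end along the gene (FLI1 from its lower end), daunorubicin above and untreated below, with the authors' score as bar height and filled bars for peaks called in 1 list only. Narrow peaks are drawn at a minimum width. RUNX1 and MYB hold most of the peaks called only with daunorubicin, 20 and 17, and FLI1 holds none of either list.

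**Figure D2:**
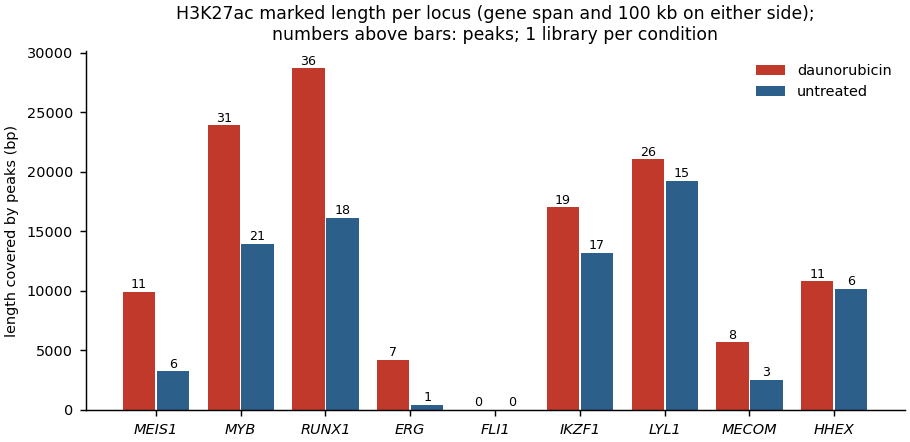
Base pairs covered by H3K27ac peaks per locus, daunorubicin left and untreated right, with the number of peaks above each bar and 1 library per condition. The bars differ most at RUNX1, 28703 bp against 16150 bp, and least among the marked loci at HHEX, 10808 bp against 10163 bp.

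Peaks found in a single list scored lower than shared peaks at these genes, as in the whole lists. A peak was called shared if it overlapped a peak of the other list by at least 1 bp. Of the 149 daunorubicin peaks 70 were called only with daunorubicin, 47.0% (95% Wilson interval 39.1 to 55.0), against 46.3% of the whole list. Their scores had a median of 22 and reached 61, whereas the 79 shared daunorubicin peaks had a median of 64 and reached 212. Over the whole daunorubicin list these medians were 26 and 74. Of the 87 untreated peaks 13 were called only without daunorubicin, 14.9% (8.95 to 23.9), against 10.7% of the whole list. Their scores ran from 13 to 26, all under the untreated median of 43, and 8 of the 13 lay at MYB. Their median was 18 against 43 at shared untreated peaks, and over the whole untreated list 21 against 49. Without MYB the shares were 44.9% (36.2 to 53.9) called only with daunorubicin and 7.58% (3.28 to 16.5) only without it. The intervals cover counting error only. By position relative to the member, 1 of the 70 peaks called only with daunorubicin lay within 1 kb of an end, at MECOM, 29 inside the gene, 24 upstream and 16 downstream. Ends of neighbouring genes were not counted here, so unshared peaks near ends of STX10 and IER2 stand as upstream of LYL1. Of the 79 shared daunorubicin peaks, 11 lay at an end, 24 inside, 25 upstream and 19 downstream. These positions were not counted over all genes.

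**Figure D3:**
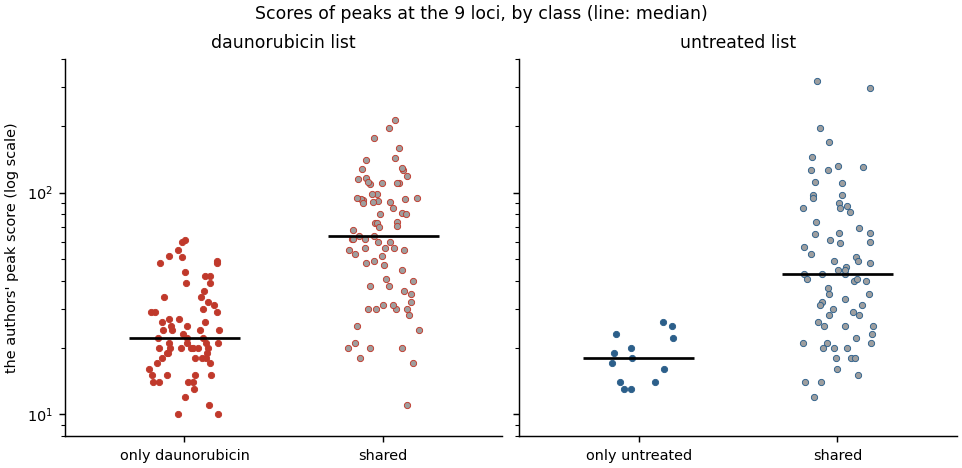
The authors' scores of the peaks at the 9 loci on a log axis, daunorubicin list left and untreated list right, each split into peaks called in that list only and shared peaks, with the median as a line. Peaks called only with daunorubicin have a median of 22 against 64 at shared peaks, and those called only without it 18 against 43. Scores are compared within a list. Where the text gives a score of each list for a region, they stand side by side and show no change, since their formula and scale are not stated.

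Among the homeobox genes, MEIS1 encodes a cofactor of HOX proteins that is central to leukaemias with high HOXA9. Its locus (chromosome 2, 66435125 to 66573869) had 11 peaks and 9922 bp with daunorubicin, against 6 peaks and 3240 bp without it. The ratio of 3.06 was above that of 96.7% of genes marked in both lists. All 6 untreated peaks were shared, and the 7 unshared daunorubicin peaks covered 4118 bp. The start was marked in both lists, by a daunorubicin peak of 2390 bp (66433711 to 66436100, score 52) and by 2 untreated peaks of 564 bp and 1186 bp with scores of 18 and 90. A shared region upstream, whose edge lay 43502 bp from the start with daunorubicin, was 827 bp wide with daunorubicin (66390797 to 66391623, score 115) and 459 bp without it (score 46). Inside the gene, a shared region was 1067 bp wide with daunorubicin (66480715 to 66481781) and 249 bp without it (66480956 to 66481204), the only untreated peak there. With daunorubicin 5 further peaks of 317 to 1466 bp and scores of 20 to 48 were called in the gene body. The widest of these lay 54979 bp from the 5′ end (66490104 to 66491569), 8900 bp from any untreated peak.

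HHEX, which encodes a homeobox repressor needed for the earliest blood and endothelial progenitors, was nearly alike in both lists. Its locus (chromosome 10, 92689955 to 92695647) had 11 peaks and 10808 bp with daunorubicin, against 6 peaks and 10163 bp without it. The ratio of 1.06 was above that of 15.3% of genes marked in both lists. At the start there were 2 peaks with daunorubicin, of 421 bp and 2076 bp with scores of 90 and 95, and the annotated start fell between them. In the untreated list a single peak of 3577 bp (92689037 to 92692613, score 85) spanned this stretch. A shared region beyond the 3′ end had 2 daunorubicin peaks, of 1117 bp (92756537 to 92757653, score 112, 60890 bp from that end) and 389 bp (92757883 to 92758271, score 45). Together they covered 1506 bp, against 1557 bp in the untreated peak over both (92756593 to 92758149, score 66). The widest region away from HHEX lay at an end of KIF11, a mitotic kinesin gene, with 2588 bp with daunorubicin against 2547 bp without it. The 3 peaks called only with daunorubicin had scores of 13 to 21.

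MYB encodes a DNA-binding factor of proliferating progenitors, and the stretch between it and HBS1L is known in human erythroid cells for distal MYB enhancers. Its locus (chromosome 6, 135181308 to 135219172) had 31 peaks and 23915 bp with daunorubicin, against 21 peaks and 13967 bp without it. The ratio of 1.71 was above that of 73.6% of genes marked in both lists. Marked regions made up 10.1% of the window with daunorubicin and 5.87% without it, above the shares of 96.5% and 85.9% of protein-coding genes. The start carried the daunorubicin peak with the highest score of the 9 loci, 212 (135180606 to 135181818, 1213 bp), next to a second of 570 bp. The untreated list had a single peak over both, of 2493 bp with a score of 170 (135180709 to 135183201).

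Upstream of MYB, 6 daunorubicin peaks were shared and 8 were called only with daunorubicin. A group of 3 unshared daunorubicin peaks stood at 135094190 to 135097803, with scores of 55, 14 and 29 and the nearest edge 83505 bp from the start. The nearest untreated peak to any of these lay 8814 bp away. A shared region 70523 bp upstream was 985 bp wide with daunorubicin (score 55) and 365 bp without it (score 23). The 3 next shared peaks between 135144455 and 135148304 had daunorubicin scores of 30 to 40, and the untreated scores there were 20 to 22. Most shared regions upstream were wider in the treated library, but that at 135144455 was narrower, with 232 bp against 370 bp without daunorubicin. Inside the gene, the widest region spanned 2268 bp with daunorubicin (135191064 to 135193331, score 81) against 1274 bp in untreated cells (score 45).

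MYB was also the locus with the most peaks called only without daunorubicin. They were 8 of its 21 untreated peaks, 38.1% (95% Wilson interval 20.8 to 59.1), a share above that of 99.1% of the 6032 protein-coding genes with at least 10 untreated peaks. Their scores were 13 to 25 and their widths 284 to 731 bp. Inside MYB lay 3 of them, and 1 of these, of 284 bp at 135204780 to 135205063, was the farthest of the 8 from a daunorubicin peak. The gaps of the 8 to the nearest daunorubicin peak ran from 382 to 4829 bp. With peaks up to 1 kb apart counted as shared, 5 of the 21 (23.8%) remained unshared, against 7.68% of the whole untreated list. The rank among genes was not computed at that setting. Beyond the 3′ end lay 4, and 3 of these were inside AHI1, the next gene. Unshared peaks of both lists were thus side by side there. Peaks called only with daunorubicin covered 8748 bp here and those called only in untreated cells 3737 bp, and shared peaks added a difference of 4937 bp.

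RUNX1, the DNA-binding subunit of core binding factor and a frequent target of leukaemic mutation and fusion, had the most daunorubicin peaks and, with all peaks counted, the largest difference of the 9. That rank depended on the peaks kept: with scores of at least 43 the difference was 7216 bp at RUNX1 and 7672 bp at MYB, and with both lists held to their 38626 best-scoring peaks it was 2491 bp at RUNX1 and 4811 bp at MEIS1. The cutoff of 43 was the same in both lists, though a common score scale is not stated. Its locus (chromosome 21, 34787801 to 35049302) had 36 peaks and 28703 bp with daunorubicin, against 18 peaks and 16150 bp without it. The difference of 12553 bp was larger than that of 98.9% of marked genes, and the ratio of 1.78 was above that of 76.7%. Both lists had 16 shared peaks. Of the 20 daunorubicin peaks that were unshared, 16 lay inside the gene, and the untreated list had 2 unshared peaks there, with scores of 20 and 14.

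RUNX1 is read from a distal and a proximal promoter, and both were marked in both lists. At the proximal start the peak was 2016 bp wide with daunorubicin (34888182 to 34890197) and 2183 bp wide without it (34888349 to 34890531). Its score of 109 stood at percentile 82.2 of the daunorubicin list, and the untreated score of 317, the highest untreated score at the 9 loci, at percentile 95.4 of that list. At the distal 5′ end, which has no promoter entry in the RefSeq table, the peak was 1599 bp wide with a score of 110 (35047702 to 35049300), against 1675 bp and 126 without daunorubicin. Within the daunorubicin list the 2 promoters thus had like scores, and within the untreated list the proximal score was well above the distal.

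The long stretch between these RUNX1 promoters, which is known to hold an enhancer active in blood stem cells, carried most of the gene's other strong peaks. A region of 2776 bp with daunorubicin (35025932 to 35028707, score 73) and 2668 bp without it (score 87) was nearly the same width in both. Farther in, a region was 1735 bp wide with daunorubicin (34982564 to 34984298, score 116) and 353 bp without it (34983547 to 34983899, score 31). Between these lay a region of 1009 bp with daunorubicin (34996050 to 34997058, score 99) against 803 bp without it (score 31). The strongest unshared daunorubicin peak at RUNX1 also lay between the promoters, with 614 bp and a score of 60 (34967416 to 34968029), 6157 bp from any untreated peak. Upstream of the distal end, 4 shared regions had daunorubicin scores of 28 to 92 and untreated scores of 20 to 51. In the weakest of these the daunorubicin peak (35112886 to 35113547) met the untreated peak (35113546 to 35113784) only at its edge.

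ERG and FLI1 are ETS factors that share binding sites with the rest of the network, and neither had a marked start in either list. At ERG (chromosome 21, 38367261 to 38661783) there were 7 peaks and 4219 bp with daunorubicin, against 1 peak and 426 bp without it. The ratio of 9.9 was above that of 99.8% of genes marked in both lists, but it rests on a single untreated peak with a score of 18. The daunorubicin peak at that place was 1768 bp wide with a score of 94 (38475739 to 38477506), and the untreated peak (38476093 to 38476518) lay inside the gene, 108832 bp from the 3′ end. None of the 4 annotated starts had a peak within 2 kb in either list. The other 6 daunorubicin peaks had scores of 11 to 44, the strongest of them 17353 bp upstream of the gene (38679136 to 38679731, 596 bp).

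FLI1 (chromosome 11, 128685132 to 128813267) had no peak in either list, nor did 7.75% of all protein-coding genes. The peaks of both lists are numbered without a gap across this stretch. The nearest daunorubicin peaks lay 207803 bp below and 465893 bp above the gene, with scores of 16 and 23. The nearest untreated peaks lay 2204204 bp below and 1081636 bp above. That untreated stretch of 3.41 Mb without a peak held 8 whole protein-coding genes and was the 47th longest gap of the list, and daunorubicin had 5 peaks in it, with scores of 16 to 24. The peak with a score of 16 was also the sole peak at ETS1, the neighbouring ETS gene (128477065 to 128477329). No called peak says only that signal did not pass the caller's threshold at an unknown depth.

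IKZF1 and MECOM encode zinc finger factors. IKZF1, or Ikaros, is known as a lymphoid regulator that is also active in multipotent progenitors. Its locus (chromosome 7, 50303455 to 50405101) had 19 peaks and 17012 bp with daunorubicin, against 17 peaks and 13206 bp in untreated cells. The ratio of 1.29 was above that of 40.1% of genes marked in both lists. At IKZF1, 14 daunorubicin and 14 untreated peaks were shared, and 5 and 3 were not. The most upstream RefSeq start was marked in both, by 859 bp with daunorubicin (50304136 to 50304994, score 94) and by 1710 bp without it (50304097 to 50305806, score 110). The strongest peak inside the gene was 734 bp with a score of 141 (50338429 to 50339162), against 689 bp and 131 in untreated cells. Unshared peaks of both lists were weak, with scores of 18 to 26 with daunorubicin and 13 to 26 without it. The highest score of the window in each list lay at an end of FIGNL1, a neighbouring gene, with 177 in the daunorubicin list and 195 in the untreated list.

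MECOM showed a difference between its starts. The gene (chromosome 3, 169083507 to 169663712) is read from a distal start, which gives the long MDS1-EVI1 form, and from internal starts that give EVI1, the form whose overexpression marks a poor-risk group of acute myeloid leukaemia. Its locus had 8 peaks and 5680 bp with daunorubicin, against 3 peaks and 2510 bp in untreated cells. The ratio of 2.26 was above that of 90.6% of genes marked in both lists. Over the internal starts the peak was 1579 bp with a score of 111 with daunorubicin (169146108 to 169147686), against 1526 bp and 127 without it (169145976 to 169147501). At the distal start there was a peak of 1245 bp and a score of 24 with daunorubicin (169662229 to 169663473) and none without it, the nearest untreated peak being 95066 bp away. Of 22182 RefSeq starts of protein-coding genes, 56.9% were marked in both lists, 4.36% only with daunorubicin and 0.654% only without it. The score of 24 stood at percentile 24.5 of its list, and the peak was not kept when scores under 43 were left out. The third shared region, upstream of the gene and nearer to another, was 652 bp (score 68) against 429 bp (score 12).

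LYL1, a bHLH factor that can stand in for TAL1 in adult stem cells of the mouse, lies in a stretch crowded with other genes. Its locus (chromosome 19, 13099033 to 13102858) had 26 peaks and 21045 bp with daunorubicin, against 15 peaks and 19228 bp without it. The ratio of 1.09 was above that of 18.4% of genes marked in both lists. Marked regions made up 10.3% and 9.43% of the window, above the shares of 97.1% and 97.7% of genes. Only 3 daunorubicin peaks and 2 untreated peaks were nearer to LYL1 than to another protein-coding gene, or as near. The rest lay at NFIX, TRMT1, NACC1, STX10 and IER2 or beyond them.

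At the LYL1 start itself, there were 2 peaks with daunorubicin, of 327 bp and 1157 bp with scores of 53 and 128. In the untreated list a single peak of 1939 bp (13101928 to 13103866, score 98) spanned most of this stretch. The 3′ end was marked by 1063 bp with daunorubicin (score 49) and 1074 bp without it (score 82). No untreated peak of the window was unshared, and the 7 daunorubicin peaks that were had scores of 15 to 51. The strongest peaks of both lists, with scores of 195 and 297, lay inside NACC1, a neighbouring gene.

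**Figure D4:**
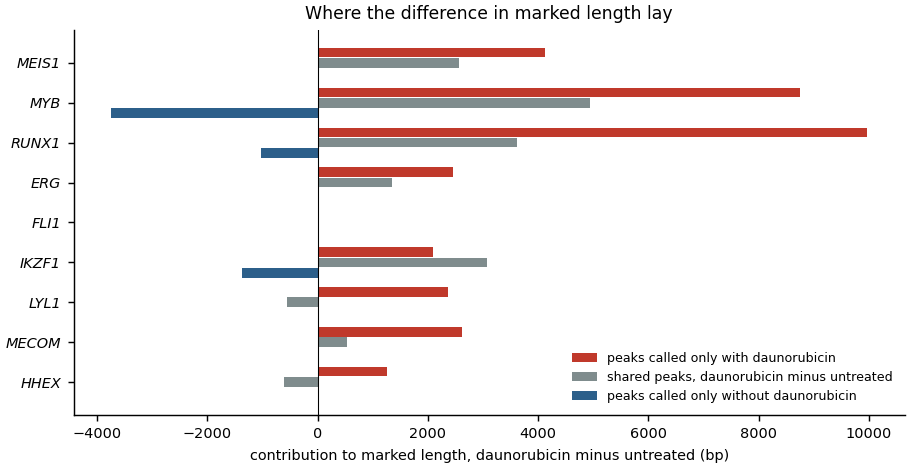
Parts of the difference in marked length at each locus in bp, daunorubicin minus untreated: peaks called only with daunorubicin, the change in shared peaks, and peaks called only without daunorubicin as negative bars. Shared peaks covered less with daunorubicin at LYL1 (-549 bp) and HHEX (-611 bp) and more at the other 6 marked loci, with 4937 bp at MYB the largest.

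Summed over the 9 loci, peaks called only with daunorubicin covered 33623 bp and those called only without it 6124 bp, and shared peaks covered 87681 bp against 72766 bp. The difference of 42414 bp thus lay mostly in unshared regions. In sum, shared peaks covered more at MEIS1, MYB, RUNX1, ERG, IKZF1 and MECOM in the treated library and less at LYL1 and HHEX. Over the whole lists, shared peaks were also wider with daunorubicin, with a median of 1097 bp against 886.5 bp. The split into shared and unshared length was not computed over all genes. Within 2 kb of a start, marked length was shorter with daunorubicin at 4 of the 9 RefSeq starts marked in both lists, namely those of HHEX (2335 bp against 2919 bp), MYB (1995 bp against 2493 bp), LYL1 (1484 bp against 1939 bp) and the most upstream of IKZF1 (1135 bp against 1710 bp). The background was 36.4% of 13048 starts. Within 1 kb it was shorter at 5 of the 9, against 43.8%. MEIS1 had 2722 bp against 1750 bp and the proximal RUNX1 start 2213 bp against 2183 bp. This measure was chosen after the peaks at these starts had been seen.

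**Figure D5:**
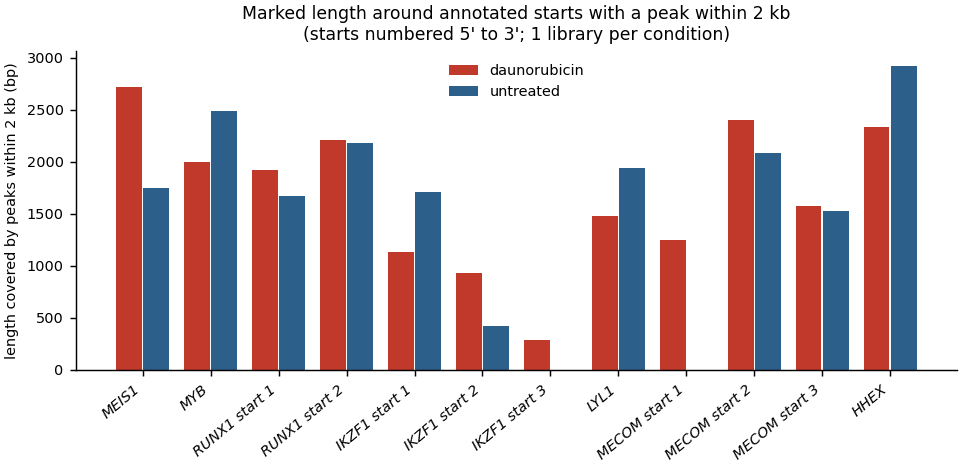
Marked bases (bp) no farther than 2 kb from each start that had any, daunorubicin left and untreated right, with the starts of a gene numbered from 5′ to 3′ (the first of RUNX1 is its annotated 5′ end). The first MECOM start has 1245 bp with daunorubicin and 0 bp without it, and at MYB, LYL1, HHEX and the first IKZF1 start the untreated bar is the longer.

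Other genes of the same network were described in windows of the same kind. Of 20 partners and cofactors, 19 had longer marking with daunorubicin and 1 shorter. A ratio of 1.5 was reached by 9 of the 20, against 40.1% of genes marked in both lists. The median difference of the 20 was 3893 bp, against 2276.5 bp for all marked genes. Among those with the largest differences were GFI1, a repressor of stem cell cycling (15544 bp against 4435 bp), KMT2A, a histone methyltransferase gene (22101 bp against 14302 bp), and CBFB, the partner subunit of RUNX1 (22556 bp against 14770 bp). The shorter was TCF3, which encodes the E proteins that pair with LYL1 (14204 bp against 15838 bp, named after its value was seen). Among the bound partners of the network, TAL1 had 13449 bp against 9008 bp, LMO2 18505 bp against 12190 bp and GATA2 18300 bp against 15613 bp (these 3 were also picked after their values were seen).

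Of 17 paralogs of the members, 15 were longer and 2 shorter with daunorubicin. A ratio of 1.5 was reached by 7 of the 16 marked in both lists, against 40.1% of all such genes. The median difference of the 17 was 3182 bp, against 2276.5 bp for all marked genes. RUNX2 had 22193 bp against 12408 bp, IKZF2 19033 bp against 10552 bp, IKZF4 27999 bp against 19752 bp and MEIS2 13903 bp against 8027 bp. The shorter were PRDM16, the paralog of MECOM (1386 bp against 2230 bp), and IKZF5 (5797 bp against 6403 bp), both named after their values were seen. The shares of longer marking in both lists of genes lay near the background of 90.8%.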

How the data were processed

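H3K27ac and input ChIP-seq of K562 cells, with and without daunorubicin, gave 4 lists of peaks, 1 per library. Per the submitters' processing notes, MACS2 2.1.1, Bowtie2 2.3.4.3 and deepTools 3.2.1 were used, and builds hg38 and hg19 were named. Neither labels nor files state thresholds, use of the inputs or treatment of duplicates. Each peak has a score that the authors deposited, whose formula is not stated, and scores were used to describe or rank peaks within a list. The exception was the cutoff of 43, the untreated median, which was applied to both lists. It takes their scores to be on the same scale, which is not stated. Peaks were called per library, and the number called can move with depth, which is unknown.

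Positions on hg38, counted from 1, were joined to RefSeq genes and promoter windows of GRCh38.p14. Peaks counted for a gene if they touched its span extended by 100 kb, and were shared at an overlap of 1 bp. For values of a locus, percentiles give the share of protein-coding genes with a smaller value, within the set of genes named beside them. Score percentiles are ranks of a peak within its own list, with ties averaged. CpG counts were ranked among promoter windows. Shares carry 95% Wilson intervals. Named genes were the 9 members, and of each other list the 4 genes with the largest absolute difference, and some genes that this rule or the marker lists hold are not reported here. The members and lists were chosen with earlier results of these data known. With 1 library per condition, no test was run. The alternatives were score, peak number, flank, overlap, gap and input settings and, added after seeing the data, nearest gene. Overlap and coverage functions gave the same counts as bedtools 2.31.1 on simulated peaks. Python 3.11.15, pandas 2.3.3 and scipy 1.17.1 were used.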

Additional observations from a re-analysis of the deposited data

How the results depend on the processing

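At the 9 loci the main values were 149 peaks with daunorubicin, 87 without it, 70 called only with it, 13 called only without it and 8 loci with longer marking. Keeping scores of at least 43 gave 65, 39, 25 and 3 peaks in the same order (38.5% and 7.69% unshared, against 41.2% and 8.0% of the whole lists), with LYL1 at -2868 bp and HHEX at -611 bp (daunorubicin minus untreated). This cutoff was the untreated median applied to both lists, so these values depend on a common score scale that is not stated. Equal numbers of top-scoring peaks, 38626 in each list, gave 78 peaks with daunorubicin, 16 called only with it, 29 called only without it and 5 loci longer, against 68.8% of genes. The unshared shares were then 20.5% and 33.3%, against 24.8% and 24.7% of the whole lists, with IKZF1 at -401 bp, LYL1 at -803 bp and HHEX at -611 bp. Flanks of 50 kb gave 8 peaks called only without daunorubicin (13.3%, against 10.7% of the whole list). Flanks of 10 kb gave 73, 43, 35 and 6 (47.9% and 14% unshared, against 46.3% and 10.7%). HHEX was at -444 bp with either flank. These have fewer peaks by construction. A reciprocal overlap of 50% gave 99 called only with daunorubicin (66.4% against 61.4% of the whole list) and 37 called only without it (42.5% against 34.9%). Counting peaks up to 1 kb apart as shared left 60 of the 149 daunorubicin peaks unshared, a share near the 41.2% of the whole list. Of the 87 untreated peaks 10 were then unshared, a share above the 7.68% of the whole untreated list. Counting only peaks nearest to the member, an alternative chosen after seeing the data, gave 98 and 56 peaks, with LYL1 at -466 bp. Of the 56 untreated peaks 8 were then called only without daunorubicin, against 10.7% of the whole untreated list. MEIS1, MYB, RUNX1, ERG and MECOM had longer marking with daunorubicin under all 6 of the settings that recompute it. Among these settings, removing peaks on input peaks could change nothing here. Of all marked genes, 83.1% were longer with scores of at least 43 and 68.8% with equal numbers of top peaks. With flanks of 50 kb and 10 kb it was 87.4% and 79.7%. The share of genes longer under every setting was not computed. At these 5 loci the size moved. With equal numbers of top peaks the difference was 1224 bp at MYB, 2491 bp at RUNX1, 1938 bp at ERG and 215 bp at MECOM, against 9948, 12553, 3793 and 3170 bp in the main setting. With scores of at least 43 it was 7216 bp at RUNX1, 2364 bp at ERG and 705 bp at MECOM, and with flanks of 10 kb 657 bp at MYB. No peak of the 9 loci lay on an input peak, so removing these changed nothing. No paired analysis was possible because each condition had 1 library. The files give no depth, so its part in the number of peaks was not tested.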

Other observations

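Of the 87 untreated peaks at the 9 loci, 8 were overlapped by at least 2 daunorubicin peaks, 9.2% against 4.28% of the whole untreated list. They were 4 at the LYL1 locus, 2 at HHEX, 1 at IKZF1 and 1 at MYB. Of those at the LYL1 locus, 1 lay at the LYL1 start and the others at the neighbouring genes TRMT1, NACC1 and IER2. Without the LYL1 locus the share was 4 of 72, 5.56%. The reverse, a daunorubicin peak over at least 2 untreated peaks, was seen at 3 of 149 peaks, 2.01% against 1.82%, with 2 at MEIS1 and 1 at IKZF1. Peaks no more than 12.5 kb apart formed clusters, of which the widest with daunorubicin lay at the LYL1 locus, with 67413 bp and 14 peaks in treated cells against 21451 bp and 5 peaks at its widest in untreated cells. At RUNX1 the widest spanned 61292 bp with 9 peaks in treated cells and 22607 bp with 3 peaks in untreated cells. Both treated clusters were joined by weak unshared peaks, without which each would fall apart. These were a peak with a score of 17 at LYL1 (13085911 to 13086169) and 1 with a score of 15 at RUNX1 (35003244 to 35003755). Marked length at LYL1 was only 1.09 times as long with daunorubicin. Cluster widths were not computed over all genes. At MYB the widest cluster was 33350 bp against 39977 bp, with 6 peaks in each list.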
